A study of Mus musculus with 3 samples.

Results

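Most of the 40 genes described here encode cytokines, chemokines, TNF family members, receptors of these or of TGF-beta, and proteins that carry or damp their signals. The noncoding RNA gene Tnfsf13os and Il4i1, which encodes an enzyme, were included through their names. All 40 were chosen by name, from the usual stems of these families. A symbol had to begin with Tnf, Traf, Ifn, Tgfb, Socs, Csf1 or Csf2, or with another stem followed by a digit. These other stems were Il, Ccl, Cxcl, Ccr, Cxcr and Bmp. The symbol also had to be assigned to a probe that names no other gene, with a value on every array. Of 6077 genes with a value on all 3 arrays, 43 fitted the stems, and Ccl22, Tnfrsf12a and Tnfrsf13c were set aside. Each array set cRNA from purchased mouse spleen total RNA, labelled with Cy5 (red), against cRNA from purchased UMRR (Universal Mouse Reference RNA, which is pooled from cultured mouse lines), labelled with Cy3 (green). Both cRNAs came from a single round of amplification, and the strain, age and number of animals behind the spleen RNA are not stated. All 3 arrays form 1 group with the same 2 products and no labelled dye swap, so what the dyes do and what the RNAs do cannot be told apart. Nothing says that the RNA was prepared anew for each array, so p-values here reflect only array-to-array spread, which may be technical.

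Cytokines are secreted proteins that bind paired receptor chains on neighbouring cells. Most interleukin and interferon receptors signal through JAK kinases and STAT transcription factors, and some SOCS proteins, induced by the same signals, switch them off. TNF family receptors act through TRAF adaptors and NF-kB, TGF-beta and BMP receptors act through SMAD proteins, and chemokines guide leukocytes through G protein-coupled receptors. In the spleen, stromal cells and macrophages make chemokines that sort lymphocytes into B and T cell areas, and leukocytes carry many of the receptors.

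The measured quantity is a signed log ratio per probe, as deposited. Neither the base of the logarithm nor the numerator is stated. Positive values are read as likely higher in spleen, because red over green is the usual order and spleen markers were mostly positive, although the titles name the reference first. Each fold is given for base 2 and again for natural logarithms. A ratio says nothing of how abundant a transcript is, and in bulk RNA fewer cells of a type and less RNA per cell cannot be told apart. An exact 0 was read as no measurement, and 24.2%, 26.8% and 24.9% of probes held it on arrays 1 to 3. The number of arrays limits the precision. Markers of spleen cells were called positive for 4 of 4 measured B cell genes (median log ratio 3.12), 5 of 6 for T cells (2.58), 4 of 4 for macrophages (2.46), 2 of 2 for neutrophils (5.0) and 5 of 5 for erythroid cells (2.64). The other T cell marker, Cd3d, was called negative, at -0.85. The 4 fibroblast and matrix markers were all negative (-2.29), and of 2 endothelial markers 1 was positive and 1 negative (1.37). Of 10 exocrine pancreas markers 9 were positive with a median of 4.21 (4.04 to 4.24 over the arrays). The part of each cell type in the ratios below was not tested.

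The promoters of 4 members are shown because they hold 1 or more matches, seen before they were chosen, to DNA motifs through which cytokine signals are known to act, in 2 members with positive ratios (Cxcl10 and Socs1) and 2 with negative ratios (Ccl1 and Csf1). Each run is the 250 bases before the RefSeq start of the gene in GRCm38.p6, 5′ to 3′ on the gene's own strand, which is the minus strand for all 4. Capitals mark matches, on either strand, to an NF-kB motif (GGG, any 3 bases, TTCC) or to an interferon response core (GAAA, any 2 bases, GAAA). The windows lie at chr5:92348890-92349139 (Cxcl10), chr16:10785537-10785786 (Socs1), chr11:82179813-82180062 (Ccl1) and chr3:107760470-107760719 (Csf1).
Cxcl10: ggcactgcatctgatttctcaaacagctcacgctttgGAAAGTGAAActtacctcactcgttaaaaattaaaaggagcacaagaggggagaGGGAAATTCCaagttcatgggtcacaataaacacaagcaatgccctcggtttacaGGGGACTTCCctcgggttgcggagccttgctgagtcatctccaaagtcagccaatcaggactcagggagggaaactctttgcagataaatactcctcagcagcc
Socs1: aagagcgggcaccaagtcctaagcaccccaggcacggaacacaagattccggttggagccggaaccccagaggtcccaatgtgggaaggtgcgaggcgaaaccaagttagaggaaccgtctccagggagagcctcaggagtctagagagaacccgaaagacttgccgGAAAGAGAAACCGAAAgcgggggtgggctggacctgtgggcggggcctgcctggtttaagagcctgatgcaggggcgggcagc
Ccl1: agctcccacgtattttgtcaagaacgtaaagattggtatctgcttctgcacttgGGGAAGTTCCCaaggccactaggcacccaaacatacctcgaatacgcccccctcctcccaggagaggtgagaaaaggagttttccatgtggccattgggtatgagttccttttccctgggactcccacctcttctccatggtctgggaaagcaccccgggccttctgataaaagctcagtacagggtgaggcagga
Csf1: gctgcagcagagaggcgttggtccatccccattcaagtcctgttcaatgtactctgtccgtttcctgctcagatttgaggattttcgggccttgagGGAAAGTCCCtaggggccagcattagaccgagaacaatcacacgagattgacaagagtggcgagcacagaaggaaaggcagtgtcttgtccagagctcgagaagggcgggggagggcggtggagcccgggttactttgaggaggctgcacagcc
The Cxcl10 window held 2 NF-kB matches, whose first letters lie 159 and 104 bases before the start, and 1 interferon core 213 bases before it. In Socs1, 2 interferon cores overlapped, 83 and 77 bases before the start. The Ccl1 window had a near-palindrome that matched the NF-kB motif on both strands, 196 and 195 bases before the start, and the Csf1 match, on the other strand, began 154 bases before it.

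RefSeq windows were found for 28 of the 40 members, 35 windows in all because some genes have several starts. The NF-kB motif was in 3 of these 35 windows (Ccl1, Csf1 and Cxcl10) and in 4.65% of all 32851 windows of the same length. The interferon core was in 4 (Cxcl10, Cxcl14, Il4 and Socs1) against 2.98% of all windows. The STAT-binding motif (TTC, any 3 bases, GAA) was in 4 (Ccl17, Cxcl14, Ifnar2 and Il1f5) against 7.02%. Members with a match had ratios of both signs: Cxcl10, Il4 and Socs1 were positive, and Ccl1, Csf1 and Cxcl14 negative. The other members with a match, Ccl17, Ifnar2 and Il1f5, were not called. A match describes the letters only, and the probes were not placed on the genome here.

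More members were positive, likely higher in spleen, than negative. With limma's test of each gene's ratio against 0 (adjusted p under 0.05 over all 6077 genes), 22 of the 40 members (55.0%) were positive, where 33.2% of all genes were, and 7 (17.5%) were negative, where 37.1% of all genes were. In either direction 29 members passed (72.5%), which is near the 70.3% of all genes. The median ratio was 0.32 over the members and -0.033 over all genes. A mean of 1 or more was reached by 9 members (22.5%), all of them called, against 7.57% of all genes, and a mean of -1 or less by 3 members (7.50%), also all called, against 6.58%. With the 3 genes set aside counted in, 24 of 43 were positive and 8 negative. Those genes had means of 0.39 ± 0.11 for the chemokine Ccl22, -3.54 ± 0.23 for the TWEAK receptor Tnfrsf12a and 3.21 ± 0.31 for the BAFF receptor Tnfrsf13c (SD, n = 3). Against a 1.5-fold ratio in place of 0, 11 members stayed positive and 3 negative if the base is 2, and 15 and 3 if the logs are natural.

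**Figure D1:**
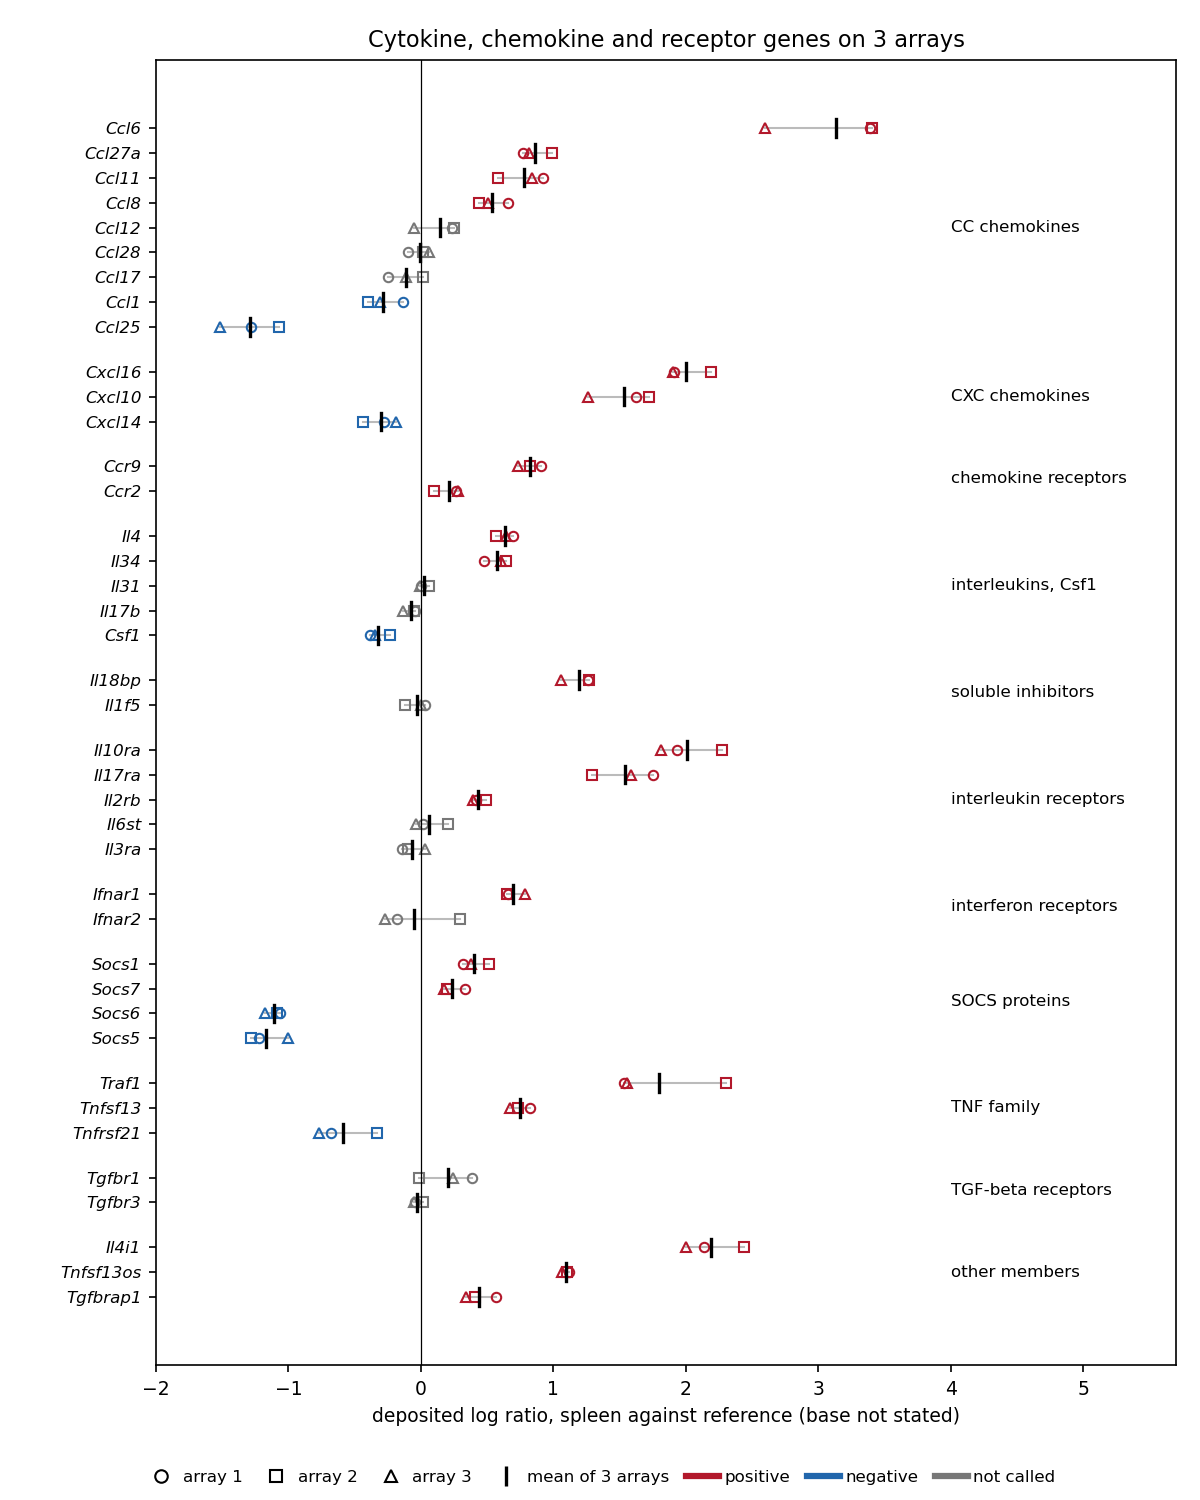
Deposited log ratio (horizontal axis, base not stated) of each of the 40 members on array 1 (circles), array 2 (squares) and array 3 (triangles), grouped by role, with the mean as a black bar and the colour giving the limma call. Ccl6 lies farthest to the right with a mean of 3.13, and Ccl25 farthest to the left at -1.29.

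**Figure D2:**
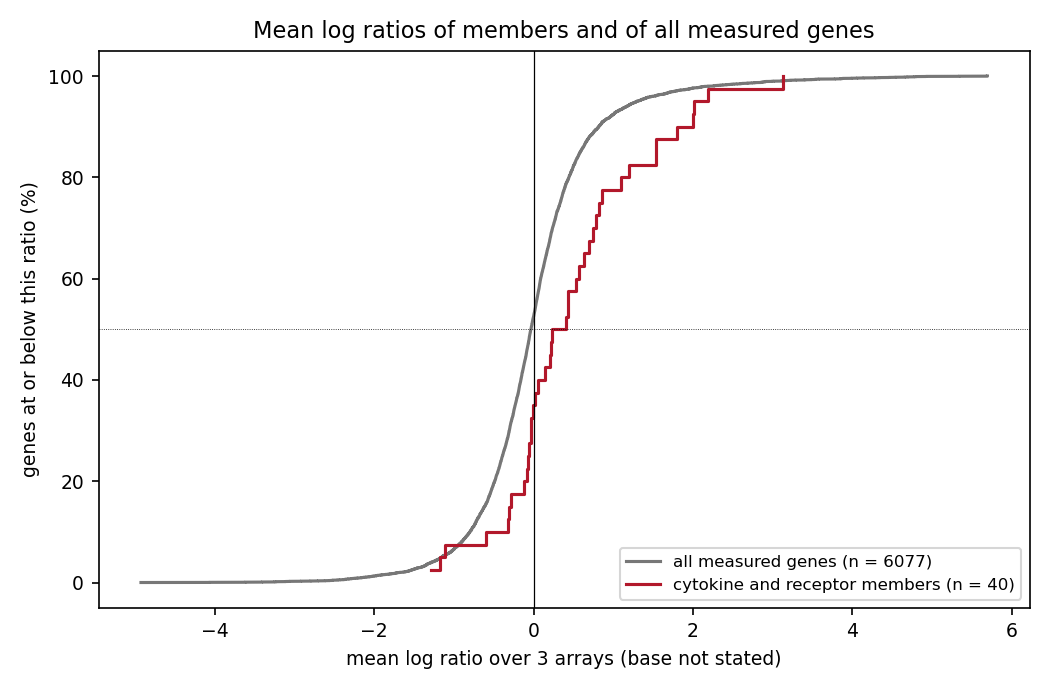
Share of genes (vertical axis, percent) at or below each mean log ratio (horizontal axis, base not stated) for the 40 members in red and all 6077 measured genes in grey. The red curve lies to the right of the grey over most of its course, with medians of 0.32 and -0.033.

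Among the members, chemokines of the CC class ranged most widely, from 3.13 to -1.29, and were also the role with the most genes. Of these 9 members 4 were positive, 2 negative and 3 not called. The TNF family receptors Tnfrsf12a (-3.54) and Tnfrsf13c (3.21), set aside by the rule, lay farther apart. Ccl6, made by macrophages and other myeloid cells, had ratios of 3.39, 3.41 and 2.60 on arrays 1 to 3. All 3 were far above 0, with array 3 the lowest, and the mean was 3.13 ± 0.46 (SD, n = 3, limma adjusted p = 2.98e-06), 8.76-fold in base 2 or 22.9-fold in natural logs. A second Ccl6 probe gave 2.99 on array 3 and 0 on the other arrays, and with 0 kept as a value the mean of both probes was 2.06. Ccl25, which draws T cell precursors to the thymus and T cells to the small intestine, was the lowest member at -1.28, -1.07 and -1.52 (mean -1.29 ± 0.22, SD, n = 3, limma adjusted p = 1.76e-05). Its receptor Ccr9 had the opposite sign, 0.91, 0.82 and 0.73 (mean 0.82 ± 0.087, SD, n = 3). The values of ligand and receptor did not overlap on the 3 arrays. No test of their difference was made.

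Ccl11 (eotaxin, an attractant of eosinophils), Ccl12 and Ccl8 (attractants of monocytes) and Ccl1 (a ligand of Ccr8 made by activated T cells) follow each other in the RefSeq gene order with no other protein-coding gene between them. Their ratios did not share a sign. Ccl11 had 0.92, 0.58 and 0.84 (mean 0.78), with all arrays positive and array 2 the lowest. Ccl8 had a mean of 0.53 ± 0.11 (SD, n = 3), whereas Ccl1 was low on every array, at -0.14, -0.40 and -0.31 (mean -0.28 ± 0.13, SD, n = 3, limma adjusted p = 0.0110). The call of Ccl1 ended with 0 kept as a value (adjusted p = 0.0782), without moderation of the variance (0.106) and at a threshold of 0.01. Removing a running median over 5 probe numbers on either side took Ccl1 to 0 (adjusted p = 1), because its own value was that median on each array, and over 20 probe numbers it was -0.37 (adjusted p = 0.00116). With 0 kept, Ccl11 fell to 0.39, because a further probe held 0 throughout.

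The gene mean of Ccl12, 0.14, hides a pair of probes that the annotation ties to the same gene. Which transcript each probe binds could not be checked. The higher probe gave 1.30, 1.55 and 0.83 (mean 1.22 ± 0.37, SD, n = 3) and the lower gave -0.83, -1.04 and -0.94 (mean -0.94 ± 0.11, SD, n = 3). Both were called in a fit over all measured probes, in opposite directions (limma adjusted p = 0.000196 and 4.10e-05), so no direction can be given for Ccl12. Taking the probe with the smallest spread turned the gene to -0.94, and removing a trend over 20 probe numbers called it positive at 0.18 (adjusted p = 0.0149).

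Ccl27a, a chemokine of skin keratinocytes, had 0.77, 0.99 and 0.82 on the 3 arrays (mean 0.86 ± 0.12, SD, n = 3). All lay above 0, yet the call ended when a running median over 5 probe numbers on either side was subtracted (0.45, adjusted p = 0.0623). RefSeq lists Ccl27b as a further copy and places Ccl27a within the span of Il11ra1, so the probe's source is uncertain. Ccl17, which attracts Ccr4-bearing T cells, and the mucosal chemokine Ccl28 were not called, with means of -0.12 ± 0.13 and -0.0087 ± 0.083 (SD, n = 3). Ccl17 was called in opposite directions with a trend removed, negative over 5 probe numbers (-0.24, adjusted p = 0.00439) and positive over 20 (0.20, adjusted p = 0.00989), so its direction is not settled. It is next but 1 to Ccl22 in the gene order, whose mean was 0.39.

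Among CXC chemokines 2 of 3 were positive and 1 negative. Cxcl16, a membrane-anchored ligand of Cxcr6 on macrophages and dendritic cells, had 1.91, 2.19 and 1.90 (mean 2.00 ± 0.17, SD, n = 3, limma adjusted p = 1.07e-06), 4.0-fold in base 2 or 7.38-fold in natural logs. Arrays 1 and 3 were nearly equal and array 2 slightly higher. A further probe held 0 on all arrays, and with 0 kept the mean was 1.0. The interferon-induced Cxcl10, which attracts T and NK cells through Cxcr3 and whose promoter is shown above with both motif types, had 1.62, 1.72 and 1.26 (mean 1.54 ± 0.24, SD, n = 3, limma adjusted p = 9.41e-06). Array 3 was the lowest and still well above 0. RefSeq places Cxcl10 within the span of Art3, and Cxcl16 overlaps Zmynd15. Cxcl14, an epithelial and stromal chemokine, was negative at -0.28, -0.44 and -0.19 over 2 measured probes (mean -0.30). Its call rested on 1 probe, at -0.48 ± 0.14 (SD, n = 3), while the other, at -0.13 ± 0.12 (SD, n = 3), did not pass. The call ended without moderation (adjusted p = 0.0912), with 0 kept, where the mean was -0.15, and with the less variable probe taken alone (-0.13, adjusted p = 0.131). It moved the other way with a trend removed, to -0.59 over 5 probe numbers (adjusted p = 0.00728) and -0.50 over 20 (0.000628).

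Both measured chemokine receptors were positive. Besides Ccr9, the monocyte receptor Ccr2 had 0.26, 0.10 and 0.28 (mean 0.21 ± 0.098, SD, n = 3, limma adjusted p = 0.0254), the weakest positive call among the members. It ended without array 1 (adjusted p = 0.131), without array 3 (0.166), without moderation (0.102), with 0 kept (0.0745) and at a threshold of 0.01, and the sign turned to -0.30 (adjusted p = 0.00270) with a trend over 5 probe numbers removed and to -0.022 over 20. The direction of Ccr2 is therefore not settled here.

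The secreted interleukins and Csf1 had small ratios, between -0.32 and 0.64, with 2 of 5 positive, 1 negative and 2 not called. Il4, the B cell and type 2 T helper cytokine, had 0.70, 0.57 and 0.64 (mean 0.64 ± 0.065, SD, n = 3). The values were close together and all above 0. Il34 and Csf1, which bind the same macrophage receptor Csf1r, had opposite signs. Il34 gave 0.48, 0.64 and 0.61 (mean 0.57 ± 0.088, SD, n = 3) and Csf1 gave -0.39, -0.23 and -0.35 (mean -0.32 ± 0.081, SD, n = 3), with no overlap between them. Neither sign held when a trend over 5 probe numbers was removed: Il34 went to -0.40 (adjusted p = 0.00832) and Csf1 to 0.15 (adjusted p = 0.0868). Over 20 probe numbers both kept their sign, at 0.36 and -0.18. Csf1r itself was listed at 0 on all arrays. Il31, an itch-related cytokine of T cells, and Il17b were not called, at 0.020 and -0.078.

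The soluble inhibitors differed. Il18bp, which neutralises interleukin-18 and is induced by interferon, had a mean over 5 probes of 1.26, 1.27 and 1.06 on the 3 arrays (mean 1.19 ± 0.12, SD, n = 3, limma adjusted p = 7.10e-06). Its probes ran from 2.31 ± 0.078 (SD, n = 3) to 0.41 ± 0.50 (SD, n = 3). The lowest, which gave 0.96, 0.31 and -0.032, did not pass, and the other four did. With a trend over 5 probe numbers removed the gene mean was 0.59. Il1f5, the antagonist of the interleukin-36 receptor, had a gene mean of -0.030 over 3 probes. Of these 1 was called positive at 0.27, 1 negative at -0.27 and 1 not called at -0.089, so it too has no settled direction. The least variable of them was the negative one.

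**Figure D3:**
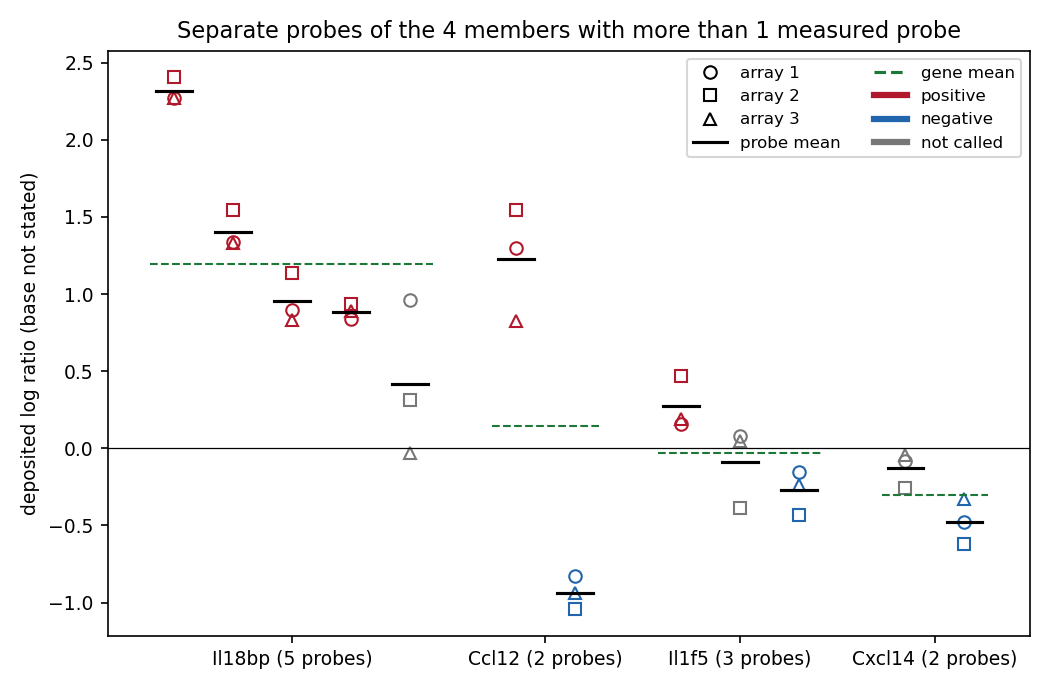
Deposited log ratio (vertical axis, base not stated) of each probe of the 4 members with more than 1 measured probe, with arrays 1 to 3 as circles, squares and triangles, the probe mean as a black bar, the gene mean as a dashed line and the colour giving the limma call of the probe. The 2 probes of Ccl12 lie on opposite sides of 0, at 1.22 and -0.94, while 4 of the 5 probes of Il18bp were called positive.

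Of 5 interleukin receptor chains 3 were positive and 2 not called. Il10ra, the ligand-binding chain of the interleukin-10 receptor on leukocytes, had 1.94, 2.27 and 1.81 (mean 2.01 ± 0.24, SD, n = 3, limma adjusted p = 2.41e-06), 4.02-fold in base 2 or 7.44-fold in natural logs. Every array was at least 1.81. Its partner chain Il10rb was listed at 0 on all arrays. Il17ra, the broadly expressed receptor chain for interleukin-17, had 1.75, 1.29 and 1.58 (mean 1.54 ± 0.23, SD, n = 3, limma adjusted p = 8.15e-06). It was lowest on array 2, unlike Il10ra. Il2rb, the chain shared by the interleukin-2 and interleukin-15 receptors of T and NK cells, had a smaller mean of 0.43 ± 0.050 (SD, n = 3), and with a further probe held at 0 kept the mean was 0.22. The shared signalling chain Il6st (gp130) gave 0.018, 0.21 and -0.040 and Il3ra gave -0.14, -0.098 and 0.034, and neither was called. With a trend removed Il6st was called positive over 5 probe numbers (0.16, adjusted p = 0.0212) and over 20 (0.20, adjusted p = 0.0261), and Il3ra negative over 5 (-0.11, adjusted p = 0.0222) but not over 20.

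The chains of the type I interferon receptor were not alike in their values. Ifnar1 was positive on every array, at 0.66, 0.65 and 0.78 (mean 0.70 ± 0.075, SD, n = 3, limma adjusted p = 6.67e-05). Ifnar2 gave -0.18, 0.29 and -0.27 (mean -0.053 ± 0.30, SD, n = 3) and was not called. The Ifnar2 value of array 2 stood on the other side of 0 from arrays 1 and 3, and without array 2 it was called at -0.23 (adjusted p = 0.0290). The 95% interval of its mean, from -0.32 to 0.21, lay below that of Ifnar1, from 0.54 to 0.85, and the difference was not tested. In the RefSeq order Il10rb lies between these genes.

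The SOCS proteins were split. Socs5 gave -1.22, -1.28 and -1.0 (mean -1.17 ± 0.15, SD, n = 3, limma adjusted p = 1.12e-05) and Socs6 gave -1.06, -1.09 and -1.18 (mean -1.11 ± 0.061, SD, n = 3, limma adjusted p = 5.98e-06). All 6 values were -1.0 or lower, which made these, with Ccl25, the lowest of the members. A further Socs6 probe, measured on arrays 2 and 3 only, gave -1.09 and -1.03. Socs1, the inhibitor induced by interferon and shown above with its overlapping interferon cores, was positive at 0.32, 0.51 and 0.38 (mean 0.40 ± 0.10, SD, n = 3, limma adjusted p = 0.00145), and 0.13 with a trend over 5 probe numbers removed. Socs7 had 0.33, 0.19 and 0.17 (mean 0.23 ± 0.085, SD, n = 3, limma adjusted p = 0.0162). Its call ended without array 1 (adjusted p = 0.115), without moderation (0.0748), at a threshold of 0.01 and with that trend removed (0.036, adjusted p = 0.364). Socs3 and Socs4 were listed at 0 on all arrays.

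In the TNF family the adaptor Traf1, induced by NF-kB in activated lymphocytes, had 1.53, 2.31 and 1.56 (mean 1.80 ± 0.44, SD, n = 3, limma adjusted p = 3.64e-05). Array 2 stood above the others, which were nearly equal. The ligand Tnfsf13 (APRIL), a survival factor of plasma cells, had a mean of 0.74 ± 0.077 (SD, n = 3), with 0.83, 0.73 and 0.68 on the arrays. Tnfsf13os, a noncoding RNA gene, gave the tightest values of all members, 1.12, 1.10 and 1.07 (mean 1.09 ± 0.026, SD, n = 3). RefSeq lists Tnfsf13, Tnfsf12, Tnfsfm13 and Senp3 as overlapping it, so these probes may share RNA. The Tnfsf12 probe, measured on arrays 1 and 3 only, was negative at -0.34 and -0.15. With a trend over 5 probe numbers removed Tnfsf13 and Tnfsf13os were 0.49 and 0.71, still called. Tnfrsf21 (death receptor 6) was negative at -0.68, -0.33 and -0.77 (mean -0.59 ± 0.23, SD, n = 3, limma adjusted p = 0.000994). Array 2 was closest to 0, and the call ended without moderation (adjusted p = 0.0806) and with 0 kept (0.0544).

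The TGF-beta receptors gave no call. Tgfbr1, the type I receptor kinase, had 0.39, -0.016 and 0.24 (mean 0.20 ± 0.20, SD, n = 3, limma adjusted p = 0.0711), the closest of the uncalled members to the threshold. It was called with each array centred on its median (0.23, adjusted p = 0.0472), with a trend removed over 5 probe numbers (0.23, adjusted p = 0.0332) or 20 (0.31, adjusted p = 0.00275), and without array 2 (0.32, adjusted p = 0.00926), the array that lay near 0. With 0 kept it was 0.068. The co-receptor Tgfbr3 (betaglycan) had -0.028 ± 0.041 (SD, n = 3). Tgfbrap1, which binds TGF-beta receptors and takes part in endosomal traffic, was positive at 0.44 ± 0.12 (SD, n = 3) and 0.80 with a trend over 5 probe numbers removed. Il4i1, an L-amino acid oxidase that B cells make after interleukin-4 and myeloid cells after activation, was the second highest member at 2.14, 2.44 and 2.00 (mean 2.19 ± 0.22, SD, n = 3, limma adjusted p = 1.35e-06), 4.57-fold in base 2 or 8.95-fold in natural logs. Array 2 was the highest and array 3 the lowest, and all lay far above 0. RefSeq lists Il4i1b over the same span, and Tbc1d17 also overlaps Il4i1. The protein-coding gene AI597479 overlaps Tgfbrap1.

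Of the 11 members that were not called, 10 had values of both signs over the arrays. Their 95% intervals reached from -0.32 to 0.41 at most, and a missed threshold does not show that spleen and reference were equal. The SD of a member over the arrays was 0.12 at the median, near the 0.11 of all genes, and was 0.20 or more for 10 members. Of the 9 members with a mean of 1 or more, 7 were highest on array 2, 2 on array 1 and 0 on array 3. Among all genes with such means these shares were 40.2%, 36.7% and 23.0%. Without array 1 the median of the members was 0.28, without array 2 it was 0.33 and without array 3 it was 0.34.

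How far an array departed from the 3-array mean was partly shared by neighbouring probe numbers, with correlations of 0.482, 0.588 and 0.441 over 8245 pairs of neighbours, which are not independent replicates. Removing a running median over 5 probe numbers on either side, which can also take away real ratios, left 20 members positive and 9 negative, with a median of 0.16. Over 20 probe numbers the counts were 25 and 7. The 7 members with means of 1.5 or more stayed positive and called under both.

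**Figure D4:**
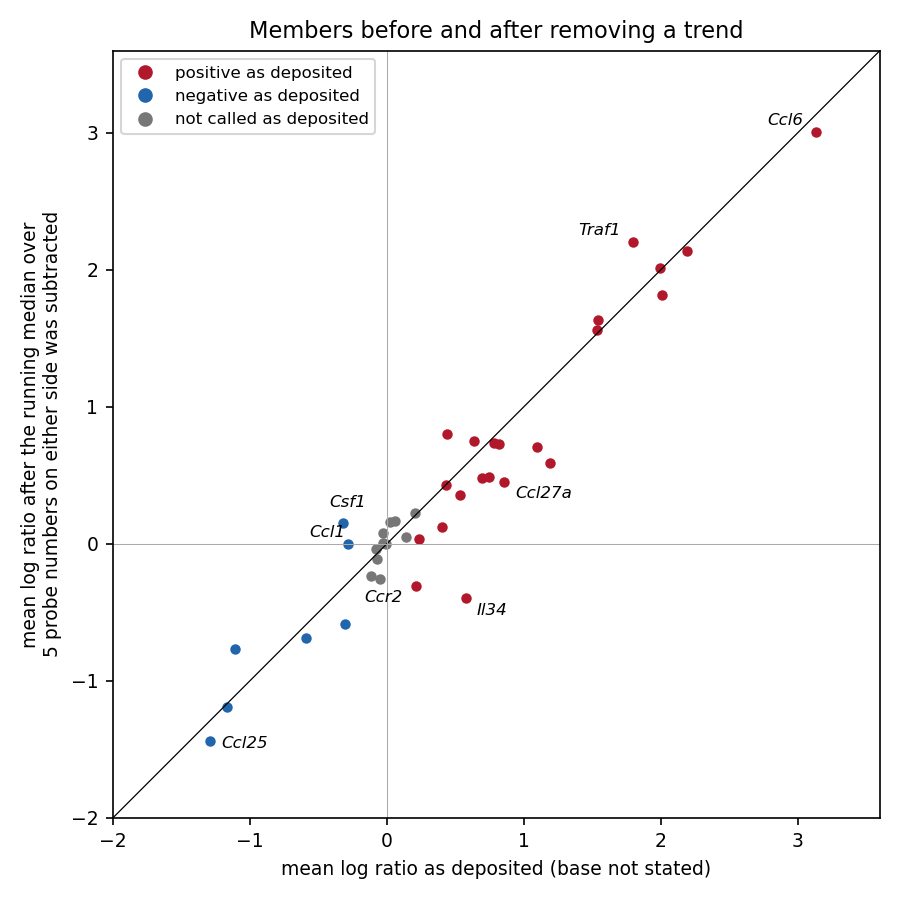
Mean log ratio of each member as deposited (horizontal axis) against the mean after a running median over 5 probe numbers on either side was subtracted (vertical axis), base not stated, with the diagonal as equality and colours for the limma call as deposited. Il34 moved from 0.57 to -0.40 and Ccr2 from 0.21 to -0.30, whereas Ccl6 stayed near the diagonal.

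A further 21 genes fitted the name stems without a value on all arrays. Just outside the rule were 7 with values on 2 arrays. The receptor Il17rd gave -1.0 and -0.67, and the decoy receptor Tnfrsf22 gave -0.69 and -0.78. Tnfaip1 had -0.59 and -0.44, and Tnfsf12 (TWEAK) had -0.34 and -0.15. On the positive side were Tnfaip8l2, an inhibitor of immune activation, at 0.74 and 1.16, Tnfrsf18 (GITR) at 0.57 and 0.58 and Tnfrsf1b (TNF receptor 2) at 0.40 and 0.59. With probes on at least 2 arrays admitted, limma called these other than Tnfsf12 (adjusted p = 0.0564). Ccl19, a chemokine of T cell areas, had a value on 1 array only, -0.056. The remaining 13 genes were listed at 0 on all arrays, among them the follicle chemokine Cxcl13, Cxcl12 and its receptor Cxcr4, Ifngr1, Il6ra, Tnfrsf17 and Traf5. Gapdh and B2m, which nearly every cell uses, were also listed at 0, so these are not to be read as unexpressed. Of the members themselves, 36 rest on 1 measured probe.

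Genes around the members were taken from 6 lists of ligands, receptors and signal carriers. Over all genes 33.2% were called positive and 37.1% negative, and the counts of each list stand beside these shares. Of 10 further cytokine and receptor genes 5 were positive, 2 negative and 3 not called, with a median of 0.29. The lymphocyte chemokine Xcl1 had 1.57 ± 0.082 (SD, n = 3), the granulocyte receptor Csf3r 1.37 ± 0.22 (SD, n = 3), the chemokine Cx3cl1 -1.0 ± 0.13 (SD, n = 3) and Mif, a cytokine that many dividing cells make, -1.98 ± 0.20 (SD, n = 3). All 3 measured genes of the death receptor list, the adaptor Fadd (0.44), its competitor Cflar (0.50) and Daxx (0.45), were positive.

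In the JAK-STAT list 4 of 8 genes were positive and 4 negative, with a median of 0.23. The positive genes included the kinase Tyk2 (1.22 ± 0.19, SD, n = 3) and Stat2 (1.47 ± 0.10, SD, n = 3), both of which serve the type I interferon receptor. The STAT inhibitor Pias1 (0.91) and Stat5b (0.70) were also positive. The negative genes were the related STAT inhibitors Pias2 (-0.72) and Pias4 (-0.37) and the phosphatases Ptpn11 (-0.48) and Ptpn2 (-0.24). In the interferon response list 7 of 8 were positive, 0 negative and 1 not called, with a median of 0.67. Isg20, an RNA exonuclease, had 2.19 ± 0.031 (SD, n = 3), the GTPase Igtp 2.12, the RNA sensor Ifih1 1.82 and Irf3 0.85. The NF-kB and Toll list had 7 of 10 positive, 2 negative and 1 not called, with a median of 0.51. The inhibitor Nfkbie (1.01 ± 0.13, SD, n = 3) and the kinase Ikbkb (0.96) led it, followed by Tab3 (0.66) and Cyld (0.59), while Tab1 (-0.48) and the NF-kB subunit Nfkb2 (-0.18) were negative.

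The TGF-beta superfamily and SMAD list had 5 of 20 genes positive, 9 negative and 6 not called, with a median of -0.15. These counts lie near the shares over all genes, 33.2% positive and 37.1% negative. The lowest were Ltbp3, which holds latent TGF-beta in the matrix (-2.36 ± 0.089, SD, n = 3), the BMP target Id1 (-2.19 ± 0.063, SD, n = 3), the BMP receptor Acvr1 (-1.53) and Tgif1, a SMAD co-repressor (-1.37). The pseudoreceptor Bambi (1.07), Eng (0.92), Tgif2 (0.31), Id2 (0.30) and Ltbp4 (0.25) were positive. No test compared these lists with other genes.

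**Figure D5:**
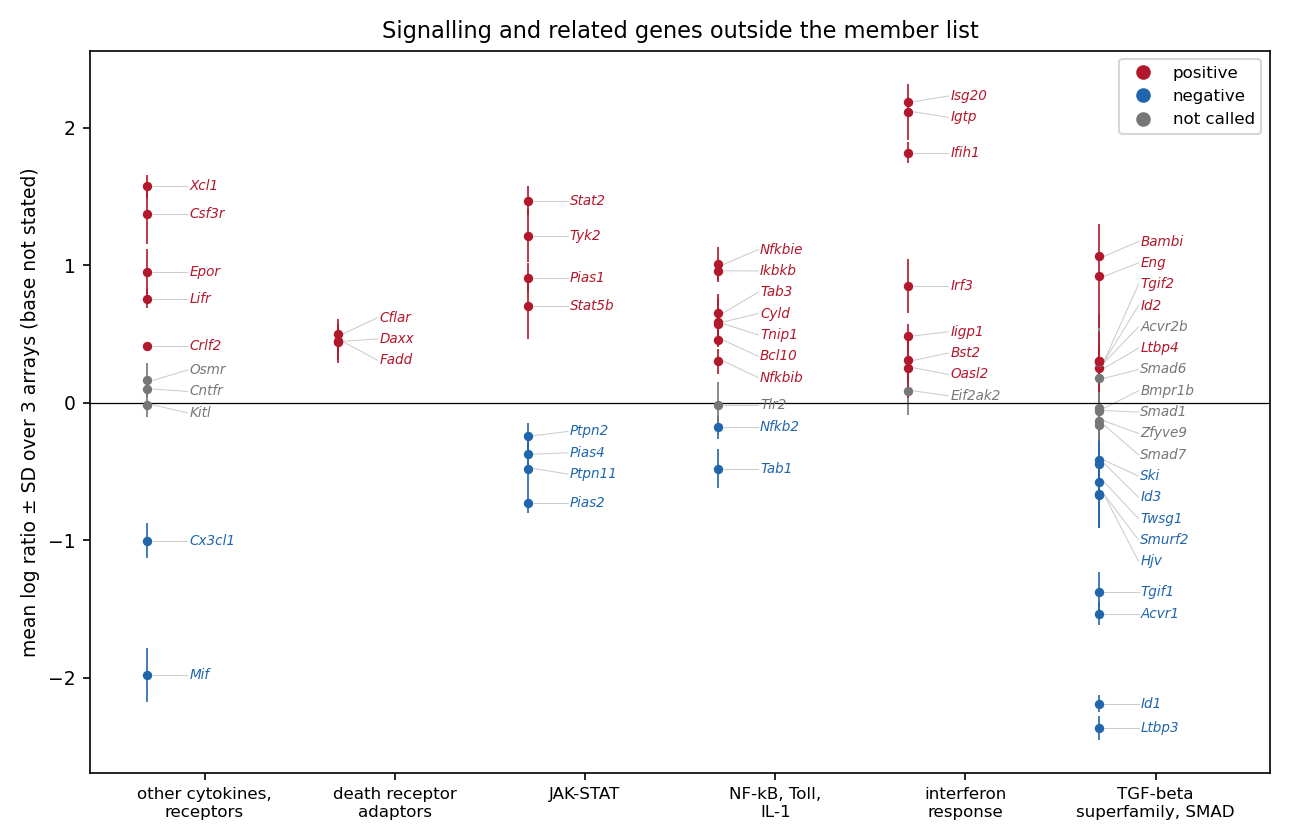
Mean log ratio (vertical axis, base not stated) with SD over 3 arrays for the measured genes of 6 lists outside the members, coloured by limma call. The interferon response list has 7 of 8 genes above 0 and called, while Ltbp3 at -2.36 and Id1 at -2.19 are the lowest points of the TGF-beta list. Over all genes 33.2% were called positive and 37.1% negative.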

How the data were processed

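Each of 3 two-colour arrays set spleen RNA against reference RNA. The authors deposited a signed log ratio for each of 16273 probes and each array. How these were scanned, normalized and centred, and the log base, is not given in the sources used here. Intensities were not analysed here, and the ratios were tested as deposited. Medians of the 11086 probes measured on all arrays were -0.028, -0.029 and -0.027.

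Probe names came from the supplied platform annotation: 12336 probes had 1 symbol, 61 several and 3876 none. All 64 gene symbols with the stems were found by gene ID in RefSeq (GRCm38.p6), which was used for names, gene order and promoters, and 0 changed. Probes with 1 symbol and a nonzero value on all arrays (8591) were averaged into 6077 genes. Gene means were compared with 0 in limma 3.58.1 under R 4.3.3 (lmFit, eBayes, two-sided, Benjamini-Hochberg over all genes, adjusted p under 0.05), after a check on simulated data. Arrays of the same extracts would count as 1 replicate.

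Array values are printed for the 12 highest and 12 lowest called members (7 were negative), for members beside the threshold or with opposed probes, and for some others chosen after their values were seen. Up to 4 genes per list are named, with any of opposite sign. Members and lists were chosen with earlier results of these data known. Other settings were centring, scaling, quantile normalization, robust or no moderation, other thresholds and probe rules, keeping 0, removing a trend along probe numbers, and leaving out each array. Figures used matplotlib 3.10.9 in Python 3.11.15.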

Additional observations from a re-analysis of the deposited data

How the results depend on the processing

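Of 29 called members, 21 kept call and sign under the settings tested against 0 with moderation at 0.05 (centring, scaling, quantile normalization, robust moderation, other probe rules, 0 kept, trend removal and leaving out each array), and 13 did so under all 17 alternatives, including the tests against 1.5-fold. Against 1.5-fold in base 2 the calls were 626 positive and 582 negative genes with 11 and 3 members; in natural logs they were 876 and 895 genes with 3 negative members. Without moderation 1395 genes and 4 members were negative. With 0 kept 4 members were negative and the member median was 0.22, against 0.35 with arrays centred and 0.16 with the trend over 5 probe numbers removed. Leaving out each array gave medians of 0.28 to 0.34, 20 to 23 positive and 7 to 8 negative members, and 1715 to 1945 positive and 1945 to 2206 negative genes. Sign changes are listed for members called as deposited or under the alternative. They were Ccl12 (-0.94, probe with the smallest spread), and Ccr2 (-0.30), Csf1 (0.15) and Il34 (-0.40) with the trend over 5 probe numbers removed. Over 20 probe numbers they were Ccl17 (0.20) and Ccr2 (-0.022). Some members called in neither fit, such as Ccl28, also changed sign, and the cause was not tested. No paired analysis was possible because the 3 arrays form 1 group. Signal over background is unknown, so whether small ratios rest on dim probes was not tested.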
